A study of Mus musculus with 9 samples.

Results

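Ephrins and Eph receptors are a system for signalling between touching cells: the ligand stays on the surface of one cell and the receptor, a tyrosine kinase, sits on its neighbour. Ephrin-A ligands are held in the membrane by a lipid anchor and ephrin-B ligands by a transmembrane segment, and EphA and EphB receptors mostly bind the class of the same letter. Signals run forward into the receptor cell and, for ephrins, in reverse into the ligand cell. In vessels ephrin-B2 (Efnb2) marks arterial and EphB4 (Ephb4) venous endothelium, and the pair keeps the boundary between them. The 10 genes described here are 4 ephrins (Efna1, Efna5, Efnb1, Efnb2) and 6 receptors (Epha2, Epha4, Ephb1, Ephb2, Ephb3, Ephb4), taken by gene symbol out of 52183 genes in the table. All 10 symbols were found once each.

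The RNA came from marrow endothelial cells of mouse long bones, stained in the living animal with an antibody to VE-cadherin and collected by flow sorting. There were 3 libraries each of control mice aged 3 months (young control), control mice aged 18 months (aged control), and mice aged 18 months labelled Aged Thbs1 knockout. Thbs1 encodes thrombospondin-1, a secreted matrix protein. The labels give no strain, sex, allele or exon for the knockout, no genotype for the controls beyond that word, and do not say whether a library is 1 mouse or a pool, so each p-value reflects no more than the variation among libraries, which may be technical. Levels are FPKM, fragments scaled for transcript length and library size, which can be compared between genes.

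The libraries were of like depth within a group, and the targeted gene went against its label. The depth implied by the values was 22160000 to 24590000 fragments in the 6 control libraries and 27230000 to 30400000 in the 3 labelled knockout. Thbs1 stood at 3.89 to 4.55 FPKM in young controls, 0.67 to 1.17 FPKM in aged controls and 19.45 to 25.63 FPKM in the libraries labelled knockout, so these are called by their label throughout. These values do not resolve exons. None of the 10 genes lies on chromosome 2, where Thbs1 is. The endothelial markers Cdh5 and Pecam1 stood at 153.15 to 176.54 and 116.47 to 174.72 FPKM over the 9 libraries, and the 5 leukocyte markers together at 3.98 to 12.04 FPKM. Sums of other lists, given below, reached 155.4 FPKM for erythroid, 107.2 for stromal and osteoblast, 81.6 for B-lineage and 70.1 for monocyte markers. Cldn5 and Erg, also endothelial markers, differed with age, as given below.

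The family was led by 1 ligand and 1 receptor. Efna1, a ligand of EphA2 first known as a gene induced in endothelium by tumour necrosis factor, had a mean of 158.7 FPKM over the 9 libraries, rank 288 of all genes in the table. Ephb4, the venous receptor, followed at 71.9 FPKM (rank 702). Efnb1, an X-linked ephrin-B, stood at 35.9 FPKM, Epha2, a receptor of ephrin-A1, at 17.7 FPKM, Efnb2 at 9.75 FPKM and Efna5, a broad ephrin-A ligand, at 3.84 FPKM. These 6 genes kept that order in all 9 libraries, and the ranges of Efna1, Ephb4 and Efnb1 did not overlap. The levels of Efnb1 and Epha2 nevertheless overlapped between libraries (22.37 to 50.35 and 9.68 to 23.91 FPKM), as did those of Epha2 and Efnb2 (5.32 to 15.1 FPKM) and of Efnb2 and Efna5 (2.57 to 5.52 FPKM). The other 4 receptors were below Efna5 in every library. Epha4, which binds ephrins of both classes, had a mean of 1.05 FPKM, Ephb3 0.798 FPKM and Ephb1 0.576 FPKM, and their ranges overlapped. Ephb2, best known from axon guidance and the gut, was at 0 to 0.05 FPKM, that is 0 to 15.3 fragments per library, and nothing further can be read from it at this depth.

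**Figure D1:**
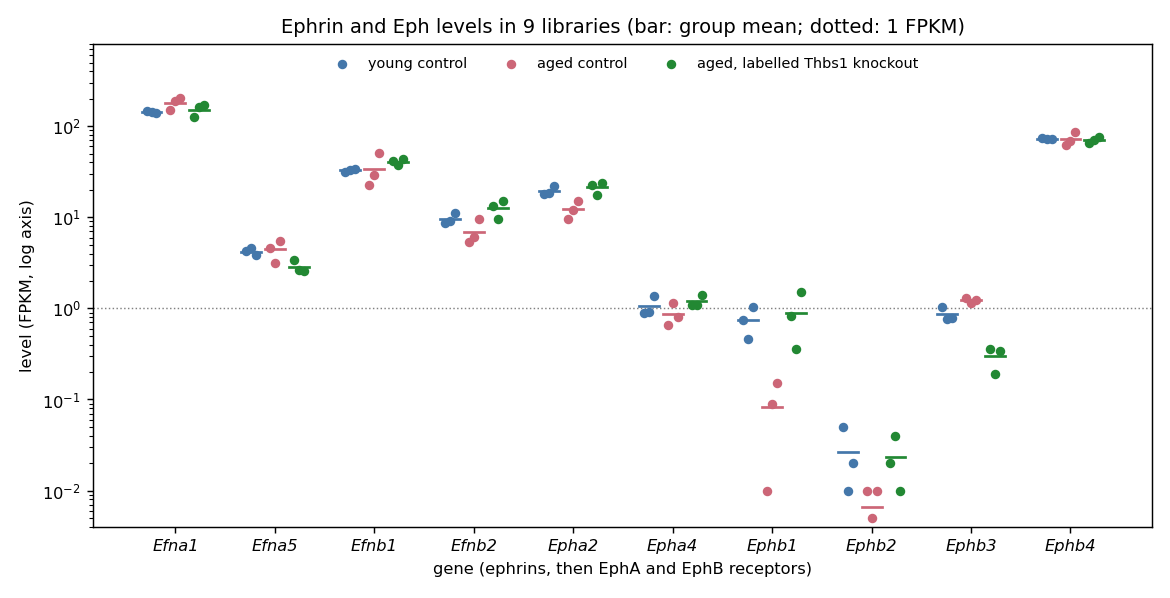
Level of each of the 10 genes in FPKM on a log axis, with 1 point per library, coloured by group, and a bar at the group mean; a value of 0 (1 library for Ephb2) is drawn at the foot of the axis, and the dotted line is 1 FPKM. Efna1 and Ephb4 stand at the top in all 9 libraries, and Ephb1 and Ephb3 show the widest separation between groups.

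Over all 22 mouse genes of the family in the table, 8 ephrins and 14 receptors, a single gene made up most of each side. Efna1 gave 67.4% to 81.6% of the summed ephrin FPKM, and Ephb4 70.3% to 81.4% of the summed receptor FPKM. Epha2 gave most of the rest of the receptors, 12.6% to 24.2%. Neighbouring genes of the family differed widely in level: Efna3 and Efna4 lie 32.76 and 52.25 kb from Efna1 on chromosome 3, yet their means were 0.09 and 1.23 FPKM. Of the 12 family genes that are not among the 10, 4 had a mean of at least 1 FPKM: Efna2 (1.94), Ephb6, whose kinase domain is inactive (1.34), Epha1 (1.31) and Efna4 (1.23). The other 8 were at 0.21 FPKM or less in every library.

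The genes lie on 9 chromosomes of GRCm38. Epha2 (ENSMUSG00000006445, 4674 bases of exon) is at chr4:141301240-141329384, Efnb2 (ENSMUSG00000001300, 6855 bases) at chr8:8617434-8661242, Ephb1 (ENSMUSG00000032537, 7002 bases) at chr9:101922128-102354693, Ephb3 (ENSMUSG00000005958, 6641 bases) at chr16:21204755-21223305 and Ephb4 (ENSMUSG00000029710, 4640 bases) at chr5:137350109-137378669. Exons of Ephb4 overlap those of Zan on the opposite strand, which was listed at 0.01 to 0.08 FPKM. Exons of Ephb1 overlap those of the antisense gene Gm26846, for which no value was used here. The strand setting of the counting is not given, so reads of such a pair cannot be told apart.

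The starts of 4 of them are shown because the first 3 (Epha2, Efnb2, Ephb1) had like patterns over the 9 libraries and the fourth, Ephb4, varied least (coefficient of variation 9.37%). Each is the 250 bases before the RefSeq gene start (GRCm38.p6), 5′ to 3′ on the gene's strand, with matches to the motifs searched in capitals. They are Epha2 on the plus strand (chr4:141300971-141301220), Efnb2 on the minus strand (chr8:8661243-8661492), Ephb1 on the minus strand (chr9:102354694-102354943) and Ephb4 on the plus strand (chr5:137349859-137350108).
Epha2: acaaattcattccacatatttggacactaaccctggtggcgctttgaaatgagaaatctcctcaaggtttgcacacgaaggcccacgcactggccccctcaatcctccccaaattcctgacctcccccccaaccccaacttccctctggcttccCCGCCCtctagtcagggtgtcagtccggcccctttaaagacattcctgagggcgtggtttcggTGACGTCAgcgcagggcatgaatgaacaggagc
Efnb2: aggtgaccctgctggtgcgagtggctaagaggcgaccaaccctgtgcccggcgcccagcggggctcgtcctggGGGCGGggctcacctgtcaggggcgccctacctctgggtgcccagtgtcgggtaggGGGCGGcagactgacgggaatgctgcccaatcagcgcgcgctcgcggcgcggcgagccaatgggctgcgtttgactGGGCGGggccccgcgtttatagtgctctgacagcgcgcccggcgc
Ephb1: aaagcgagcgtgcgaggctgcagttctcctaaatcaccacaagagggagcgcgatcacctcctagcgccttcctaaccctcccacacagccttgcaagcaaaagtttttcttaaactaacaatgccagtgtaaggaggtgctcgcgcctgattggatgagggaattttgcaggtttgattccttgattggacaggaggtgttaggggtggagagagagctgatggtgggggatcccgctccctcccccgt
Ephb4: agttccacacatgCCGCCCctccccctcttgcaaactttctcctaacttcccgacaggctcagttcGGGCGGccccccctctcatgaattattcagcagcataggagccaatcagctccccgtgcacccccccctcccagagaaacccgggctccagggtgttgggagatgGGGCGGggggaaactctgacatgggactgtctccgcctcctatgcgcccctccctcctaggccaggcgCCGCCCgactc

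The GC box GGGCGG was found on either strand 1 time before Epha2, 3 times before Efnb2, 4 times before Ephb4 and in 7 of the 10 genes, against 32.7% of 32851 windows of this length before RefSeq genes. The window of Ephb1 held no match to any motif searched. The cyclic AMP response element TGACGTCA, its own reverse complement, stood 33 bases before the RefSeq start of Epha2. It was searched after that sequence had been seen, and 1.55% of all windows hold it. The window of Epha2 ends at 141301220, short of the GENCODE start printed above (141301240). For Epha2, Efnb1 and Ephb2 the bases just after the RefSeq start were not found in a GENCODE transcript of the gene. The core of RBPJ, the DNA-binding partner of Notch (TGGGAA, 21.6% of windows), was found before Efnb1 and Epha4, and the ETS core CCGGAA (12.03%) before Ephb2. The AP-1 site TGACTCA (4.46%), the NF-kB site (0.283%) and the forkhead site GTAAACA (3.17%) were found before none of the 10. No 2 motifs overlapped in the sequences printed. All 10 genes had a window (11 in all, 2 for Efna1), and each had more G and C (54% to 74.8%) than the median window (52.4%). A match describes letters, not a bound site.

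Aged and young controls were compared first, which asks how the family differs with age. Epha2 was lower in each of the 3 aged controls than in any young control but just missed the threshold. It stood at 17.98, 18.58 and 21.9 FPKM in young controls and at 9.68, 11.89 and 15.29 FPKM in aged controls. The groups did not overlap, and the aged mean was 0.631 times the young mean. Means were 19.5 ± 2.11 in young and 12.3 ± 2.83 FPKM in aged controls (SD, n = 3), with a log2 difference of -0.64 ± 0.166 SE and limma adjusted p = 0.0597. In bulk RNA fewer cells of a type and less RNA per cell cannot be told apart, here and below. Efna1, the ligand of that receptor, stood at 145.82, 142.95 and 141.16 FPKM in young and 150.29, 186.96 and 204.07 FPKM in aged controls. It was higher in every aged library, by 1.26 times in the means, without passing the test (log2 difference 0.32 ± 0.141 SE, limma adjusted p = 0.178).

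Ephrin-B ligands were spread widely among the aged controls. Efnb2 stood at 8.59, 9.03 and 11.05 FPKM in young and at 5.32, 6.09 and 9.5 FPKM in aged controls. The groups overlapped through aged control replicate 3 (log2 difference -0.43 ± 0.209 SE, limma adjusted p = 0.209). Efnb1 was at 31.81, 33.48 and 33.89 FPKM in young and 22.37, 29.02 and 50.35 FPKM in aged controls, and the highest aged value again came from replicate 3. Ephb4 had nearly the same mean in both groups, 72.6 ± 0.987 and 72.03 ± 12.2 FPKM (SD, n = 3), and the 95% interval of its log2 difference ran from -0.29 to 0.24. The interval of Efna5 was -0.33 to 0.42 and that of Epha4 -0.51 to 0.24.

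None of the 7 genes that averaged 1 FPKM or more passed limma's test with age, where 3.99% of the 11796 genes tested did (1.2% higher, 2.8% lower). At an unadjusted p under 0.05 there were 2 (Epha2 and Efna1), and voom on recovered fragments (limma's weighting of fragment counts worked back from FPKM, exon length and depth) called 1, Epha2, against 5.04% of all genes. Groups did not overlap for 2 of the 7, against 35.7% of all genes. The median log2 difference of the 7 was -0.04, and that of all genes tested -0.045.

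Libraries labelled knockout were then compared with aged controls, which asks what goes with the labelled genotype at 18 months, with the reservation on Thbs1 given above. The aged controls are shared by both comparisons, so a low value in them enters both. Epha2 rose in the libraries labelled knockout. Its 3 values there were 22.57, 17.68 and 23.91 FPKM, above all 3 aged controls, and its mean of 21.4 ± 3.28 FPKM (SD, n = 3) was 1.74 times the aged mean (log2 fold change 0.76 ± 0.166 SE, 95% interval 0.39 to 1.13, limma adjusted p = 0.0328). These values overlapped those of young controls. Leaving out 1 library at a time ended the call 7 times in 9 (adjusted p = 0.0177 to 0.127 over the 9), namely without any of the young controls, aged control 1 or 2, or replicate 1 or 3 labelled knockout, and in the fit of the 6 libraries alone (adjusted p = 0.103).

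Efnb2, the arterial ligand, had the same order of groups and lay on the other side of the threshold. With the label knockout it was at 13.46, 9.58 and 15.1 FPKM, against 5.32, 6.09 and 9.5 FPKM in aged controls. The groups touched but did not overlap: replicate 2 labelled knockout was 9.58 and aged control replicate 3 was 9.5 FPKM. The means differed by 1.82 times (12.7 ± 2.83 against 6.97 ± 2.22 FPKM, SD, n = 3, log2 difference 0.80 ± 0.209 SE, limma adjusted p = 0.06). Without aged control replicate 3 it passed (log2 fold change 1.01, adjusted p = 0.0239), as it did without replicate 2 labelled knockout (0.97, adjusted p = 0.0259), and in the other 7 such fits it did not.

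**Figure D2:**
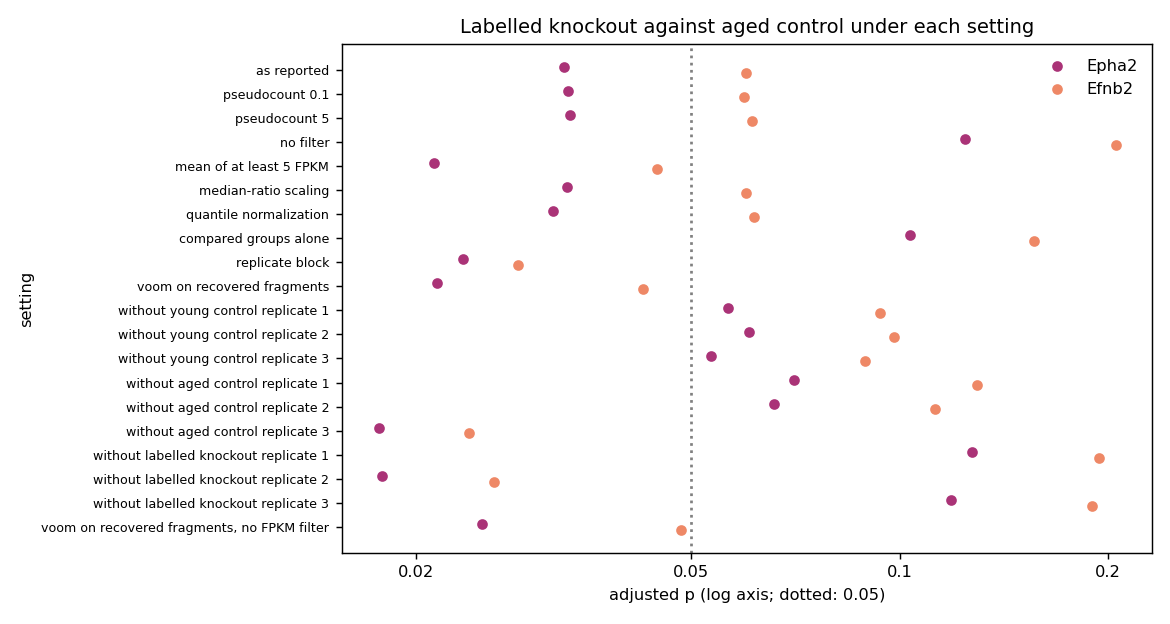
Adjusted p of Epha2 and Efnb2 in the libraries labelled knockout against aged controls, on a log axis, as reported and under each other setting; the dotted line is 0.05. Epha2 lies between 0.0177 and 0.127 and Efnb2 between 0.0239 and 0.205, on both sides of the line.

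**Figure D3:**
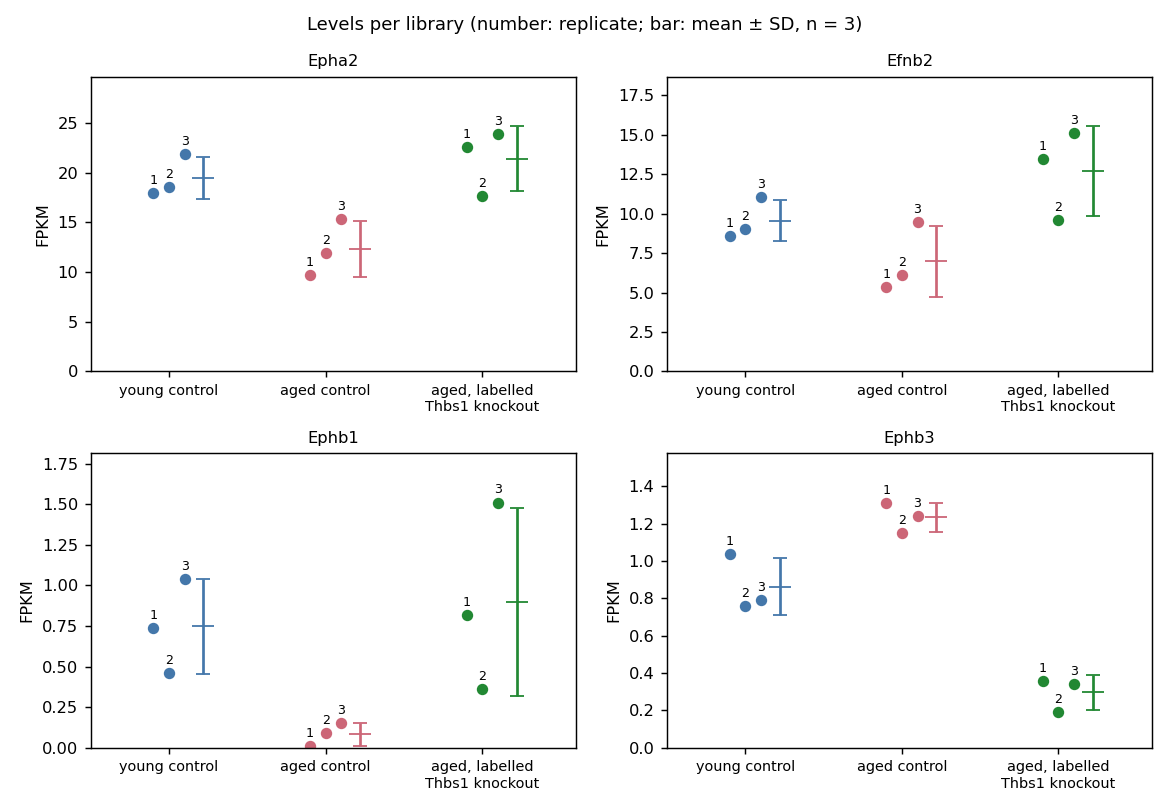
Level in FPKM of Epha2, Efnb2, Ephb1 and Ephb3 in each library, with 1 point per library numbered by replicate and the mean ± SD (n = 3) beside it. Aged controls have the lowest mean for Epha2, Efnb2 and Ephb1, though for Efnb2 they overlap the young controls. Ephb3 is lowest in the libraries labelled knockout (0.19 to 0.36 FPKM).

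The other ligands and receptors above 1 FPKM did not pass. With that label Efna5 was at 3.43, 2.63 and 2.57 FPKM, compared with 4.65, 3.17 and 5.52 FPKM in aged controls, a mean 0.647 times as high with overlapping groups (log2 difference -0.47 ± 0.168 SE, limma adjusted p = 0.127). It was called without aged control replicate 2 (log2 fold change -0.65, adjusted p = 0.042). Efnb1 was at 41.29, 38 and 43.14 FPKM, inside the wide range of the aged controls (adjusted p = 0.399). Without aged control replicate 3, the library that held 50.35 FPKM, its log2 fold change was 0.66 and adjusted p = 0.0232. Efna1 was at 125.09, 161.04 and 171.36 FPKM (adjusted p = 0.329). Ephb4 stood at 65.66, 71.38 and 76.63 FPKM, and the 95% interval of its log2 difference from aged controls was -0.27 to 0.26. Epha4 was at 1.1, 1.09 and 1.42 FPKM (adjusted p = 0.416).

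Of the 7 genes tested, 1 was called here (Epha2), against 4.79% of all genes (2.78% higher, 2.01% lower), and voom called 2 (Epha2 and Efnb2), against 5.59%. Groups did not overlap for 2 of the 7, against 23.2% of all genes. The median log2 difference of the 7 was 0.24, beside 0.0025 for all genes tested.

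**Figure D4:**
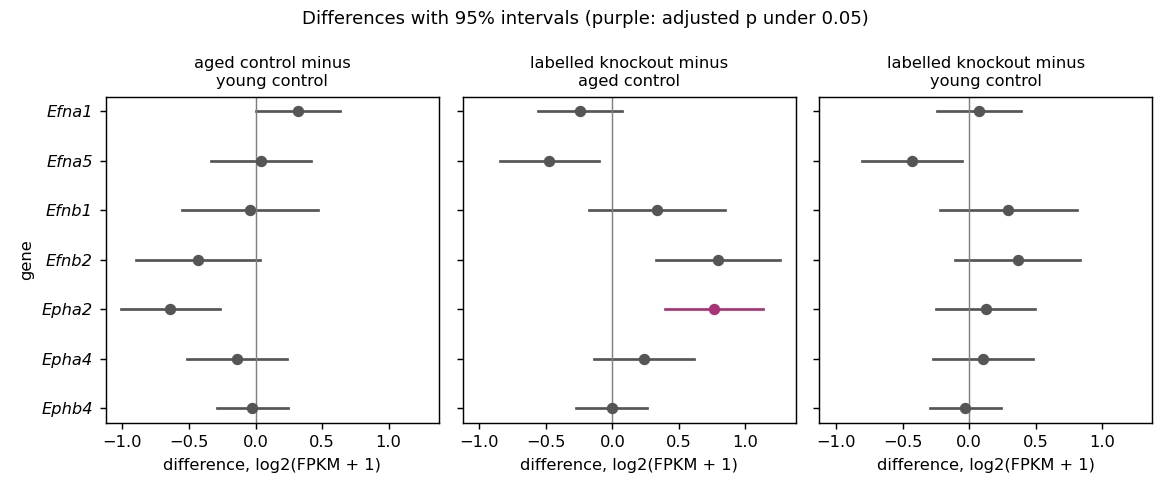
Difference in log2(FPKM + 1) between groups for the 7 genes that entered the test, as points with 95% intervals from limma, in 3 panels for the 3 comparisons; purple marks an adjusted p under 0.05. Epha2 in the libraries labelled knockout against aged controls is the purple point (0.76, interval 0.39 to 1.13).

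Ephb1 and Ephb3 had means below 1 FPKM and so entered no test of the kind above. Their long transcripts still gave 38.4 fragments or more per library, except for Ephb1 in aged controls. Comparisons of Ephb1 with that group are therefore read from values near the floor. Ephb1, an ephrin-B receptor studied mainly in neurons, stood at 0.74, 0.46 and 1.04 FPKM in young controls (118.6, 73.6 and 174 fragments). In aged controls it was at 0.01, 0.09 and 0.15 FPKM (1.6, 14.4 and 25.8 fragments), and in the libraries labelled knockout at 0.82, 0.36 and 1.51 FPKM (160.9, 76.6 and 287.9 fragments). Aged controls were below every other library, at 0.112 times the young mean, and the mean labelled knockout was 10.8 times the aged mean. Fitted on fragments without the FPKM filter, a step added after these values were seen, its log2 differences were -3.52 ± 0.962 SE (voom adjusted p = 0.0734) and 3.6 ± 0.95 SE (adjusted p = 0.0674), neither of which passed. Without replicate 2 labelled knockout both passed (adjusted p = 0.0291 and 0.0111, against 1.76% and 2.27% of all genes called by this fit with all libraries). The shares for this fit without that library are not given here. In limma, leaving it out raised the share of all genes called from 3.99% to 8.81% with age and from 4.79% to 9.83% in the second comparison. In the other 8 fits that left out 1 library neither difference of Ephb1 passed (adjusted p = 0.0563 to 0.193 and 0.108 to 0.178). The size rests on single libraries too: over the 9 fits the log2 differences ran from -4.22 (without aged control replicate 3) to -2.59 (without replicate 1) with age, and from 2.66 (without aged control replicate 1) to 4.29 (without replicate 3) in the second comparison.

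Ephb3, a receptor known for placing cells in the intestinal crypt, had another pattern. It was at 1.04, 0.76 and 0.79 FPKM in young controls (158, 115.4 and 125.3 fragments) and at 1.31, 1.15 and 1.24 FPKM in aged controls (192.8, 175 and 202.5 fragments). In the libraries labelled knockout it was at 0.36, 0.19 and 0.34 FPKM (67, 38.4 and 61.5 fragments). No 2 of the 3 groups overlapped, with aged controls highest and the libraries labelled knockout lowest, and an exact permutation test of 3 against 3 cannot go below p = 0.1. The mean FPKM labelled knockout was 0.241 times the aged mean. In the added fit on fragments Ephb3 fell in the libraries labelled knockout against aged controls (log2 fold change -2.12 ± 0.305 SE, voom adjusted p = 0.0027, where 2.27% of the 24054 genes tested were called). The call held in all 9 fits that left out 1 library (adjusted p = 0.00482 to 0.0146). The shares of all genes called in those 9 fits are not given here. In the fit on log2(FPKM + 1) without the filter, where the pseudocount shrinks low genes, the difference was -0.79 ± 0.137 SE and adjusted p = 0.0688. The difference between aged and young controls did not pass on fragments (log2 0.53 ± 0.246 SE, adjusted p = 0.259).

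Against young controls the libraries labelled knockout differ in age and labelled genotype together. Here limma called none of the 7 genes, with 1 at an unadjusted p under 0.05 (Efna5) and none by voom, and 0.212% of all genes were called (0.17% by voom). Efna5 was lower in each library labelled knockout than in any young control (log2 difference -0.43 ± 0.168 SE, limma adjusted p = 0.477), and Efnb1 was higher in each (0.29 ± 0.229 SE, adjusted p = 0.728). Groups did not overlap for these 2 of the 7, against 22.4% of all genes. The 95% interval of the log2 difference was -0.25 to 0.49 for Epha2, -0.10 to 0.83 for Efnb2 and -0.30 to 0.24 for Ephb4. Ephb3 was at 0.344 times its young mean (log2 difference -1.59 ± 0.318 SE on fragments, voom adjusted p = 0.0931, with 0.0915% of all genes called by that fit). Ephb1 was at 1.2 times its young mean (0.07 ± 0.486 SE, adjusted p = 0.973).

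Levels of ligand and receptor are easier to set against each other within a library. These ratios were chosen after the values were seen and are given without a test. Efna1 was 8.11, 7.69 and 6.45 times Epha2 in young controls, 15.5, 15.7 and 13.3 times in aged controls, and 5.54, 9.11 and 7.17 times under the knockout label. The aged controls stood apart from all 6 other libraries. For Efnb2 over Ephb4, the arterial ligand over the venous receptor, the ratio was 0.117, 0.126 and 0.153 in young controls, 0.0854, 0.0895 and 0.111 in aged controls, and 0.205, 0.134 and 0.197 under the knockout label. Here the aged controls were lowest, below all 6 other libraries. Summed over the family, ephrins were 1.94 to 2.01 times receptors in young controls, 2.44 to 2.7 times in aged controls and 1.99 to 2.34 times in the libraries labelled knockout.

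**Figure D5:**
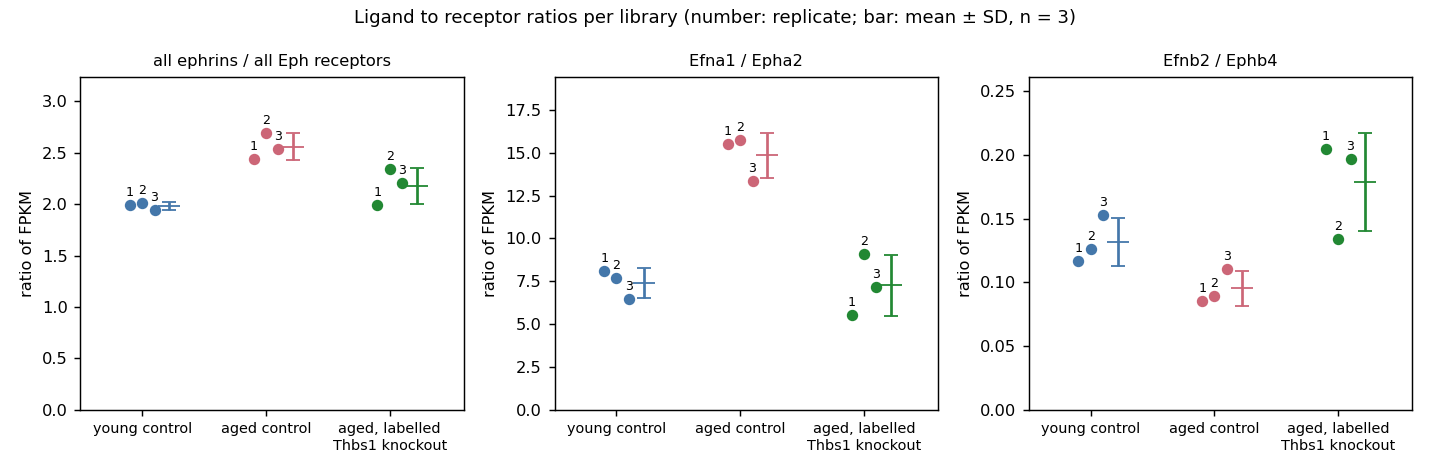
Ratio of FPKM in each library for all ephrins over all Eph receptors, Efna1 over Epha2 and Efnb2 over Ephb4, with 1 point per library numbered by replicate and the mean ± SD (n = 3) beside it. Aged controls are highest in the first 2 panels (Efna1 over Epha2, 13.3 to 15.7) and lowest in the third (0.0854 to 0.111).

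Several of the 10 genes went together across libraries. Pearson's r of log2(FPKM + 1) over the 9 libraries was 0.949 for Efnb2 and Epha2, 0.91 for Epha2 and Ephb1, and 0.862 for Efnb2 and Ephb1. It was -0.724 for Efnb2 and Ephb3. These 9 points share 3 groups and their depths, so each r is a description. Epha2 was the called gene, and the tested genes most like it over the 9 libraries were Pik3r3, a regulatory subunit of phosphoinositide 3-kinase (r = 0.984), Dnaja4, a co-chaperone (0.974), and Ehd4, an endocytic membrane protein (0.972). Having been chosen for their likeness to Epha2 in these libraries, they share its group pattern and are given without a test. Pik3r3 had means of 2.96 ± 0.714 FPKM in aged controls and 5.9 ± 0.836 FPKM in the libraries labelled knockout (SD, n = 3), Dnaja4 of 7.57 ± 1.18 and 10.7 ± 0.497 FPKM, and Ehd4, which lies 1.96 Mb from Thbs1 on chromosome 2, of 8.79 ± 2.29 and 16.3 ± 1.87 FPKM. Replicate 2 labelled knockout had the lowest value of its group for Epha2, Efnb2 and Ephb1, nearest the aged controls. Its Ephb3 was also the lowest of its group (0.19 FPKM), which there was farthest from the aged controls. Aged control replicate 3 had the highest value of its group for Efna1, Efna5, Efnb1, Efnb2, Epha2, Ephb1 and Ephb4.

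Genes that act with the family were described from lists. Among 30 adaptors, kinases and exchange factors of forward signalling, 25 were tested. With age 1 fell, the adaptor Crk, from 71.6 ± 3.61 to 49.2 ± 6.21 FPKM (SD, n = 3, limma adjusted p = 0.0363), and none rose. That is 1 of 25, against 3.99% of all genes called with age (2.8% lower), so the count is near the background. In the libraries labelled knockout against aged controls 1 rose, Nck2, an adaptor with SH2 and SH3 domains that binds Eph receptors and ephrin-B, from 8.92 ± 0.72 to 13.7 ± 1.11 FPKM (adjusted p = 0.0187), and none fell. This too is 1 of 25, near the 4.79% of all genes called there (2.78% higher). The median log2 differences of this list were -0.25 and 0.16, beside -0.045 and 0.0025 for all genes. Of 15 reverse signalling genes, 10 were tested and 2 rose in that second comparison, Nck2, which is in both lists, and Cav1, the caveolar coat protein, from 28.9 ± 3.6 to 64.5 ± 29.7 FPKM (adjusted p = 0.0476), where 2.78% of all genes were called higher. Their median with age was 0.11, with none called by limma, 3 at an unadjusted p under 0.05 and 1 by voom, and it was -0.08 in the second comparison. Crk was not called in 6 of the 9 fits without 1 library, Nck2 in 1 and Cav1 in 8.

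Proteases, phosphatases and ubiquitin ligases that cut or switch off ephrins and Ephs numbered 13, of which 12 were tested. Adam10, a protease that cleaves ephrins bound to their receptors, fell between young (54.3 ± 1.03 FPKM) and aged controls (35.5 ± 3.84 FPKM; SD, n = 3, limma adjusted p = 0.0355, not called in 5 of 9 fits without 1 library), and none rose. That is 1 of 12, where 3.99% of all genes were called (2.8% lower). The medians were -0.03 with age and 0.03 in the libraries labelled knockout against aged controls, where limma and voom called none and 4 had an unadjusted p under 0.05. Of 21 regulators of arterial and venous identity, 20 were tested. With age limma called none, with 7 at an unadjusted p under 0.05 and 1 by voom, and the median was -0.17. Against aged controls 5 rose in the libraries labelled knockout and none fell, that is 5 of 20, where 2.78% of all genes were called higher, and the median was 0.20 against 0.0025 for all genes. Sox7, an endothelial transcription factor, stood at 36.2 ± 3.28 and 64.7 ± 8.79 FPKM (adjusted p = 0.0065), and the growth factor Vegfa at 22.4 ± 0.218 and 34.1 ± 2.59 FPKM (adjusted p = 0.00706). The Notch ligands Jag1 and Dll1 rose by log2 0.78 and 0.76 (limma adjusted p = 0.0126 and 0.0201), and Notch1, named because it completes the count, by 0.50 (adjusted p = 0.0385, not called in 7 of 9 fits without 1 library; Dll1 in 2). Against young controls none of these 4 lists held a called gene by limma or voom, with 1, 2, 1 and 7 genes at an unadjusted p under 0.05 in the order given here. The 4 other family genes above 1 FPKM were called in no comparison by either method. At an unadjusted p under 0.05 there was 1 with age and 1 in the libraries labelled knockout against young controls, Efna2 both times.

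Marker levels of other cells also differed between groups, and their part in the results was not tested. The 10 arterial markers summed to 389.9 to 463.8 FPKM in young controls, 652.4 to 738.5 in aged controls and 375.4 to 676.2 under the knockout label, so 1 library labelled knockout lay inside the range of the aged controls. Ly6a made up most of each sum: it stood at 287.23 to 354.32 FPKM in young and 548.78 to 657.07 FPKM in aged controls, and at 255.35, 554.53 and 355.18 FPKM in replicates 1, 2 and 3 labelled knockout. Replicate 2 was thus nearest the aged controls in Ly6a as in Epha2 and Efnb2. In Ephb3 it was farthest from them (0.19 FPKM, against 0.36 and 0.34 FPKM in replicates 1 and 3). Dll4, another arterial gene of the list, stood at 34.73 to 50.35 FPKM in aged controls and at 59 to 70.64 FPKM under the knockout label. Cd34 was at 19.71 to 23.81 FPKM in young controls, 7.01 to 15.93 in aged controls and 18.98 to 38.9 under the knockout label. Of the 9 arterial markers tested, limma called only Cd34 between these last 2 groups, where 2.78% of all genes were called higher. With age it called none of the 9. Gja4 was highest in aged controls, like Ly6a, at 10.59 to 12.75, 18.16 to 38.21 and 9.81 to 16.02 FPKM. The 9 sinusoidal markers summed to 1765 to 1899, 1607 to 2004 and 1613 to 1926 FPKM. Within that list Fcgr2b stood at 99.92 to 126.08, 233.65 to 362.27 and 41.97 to 180.85 FPKM. It was the 1 of 8 tested that limma called lower in the libraries labelled knockout against aged controls, where 2.01% of all genes were. With age limma called none of the 8, with 4 at an unadjusted p under 0.05. The 10 stromal and osteoblast markers summed to 77.3 to 107.2 FPKM in young controls, 40.9 to 49.3 in aged controls and 35.5 to 47.1 under the knockout label. The 6 smooth muscle and pericyte markers summed to 10.3 to 13.8, 3.15 to 6.97 and 1.33 to 7.28 FPKM in the same order. For the 5 leukocyte markers the sums were 4.06 to 10.2, 10.1 to 12.04 and 3.98 to 9.83 FPKM, for the 6 monocyte markers 26.6 to 70.1, 39.7 to 53.6 and 21.05 to 42.1 FPKM, and for the 6 B-lineage markers 3.24 to 40.2, 23.8 to 81.6 and 2.78 to 31.3 FPKM. The 5 megakaryocyte markers were at 25.1 to 28.8, 23.7 to 34.7 and 20.9 to 35.2 FPKM, and the 5 erythroid markers at 89.5 to 94.7, 43.2 to 155.4 and 35.3 to 145.02 FPKM. The 10 pan-endothelial markers summed to 2082 to 2107, 2329 to 2446 and 1995 to 2149 FPKM. Within that list Cldn5 stood at 460.51 to 495.35, 767.16 to 864.47 and 426.2 to 569.88 FPKM. Erg stood at 13.71 to 15.28, 7.03 to 10.53 and 12.15 to 13.49 FPKM. Cldn5 was called higher and Erg lower with age, where 1.2% and 2.8% of all genes were. In the libraries labelled knockout against aged controls Cldn5 was called lower, where 2.01% of all genes were. The median log2 difference of the list was -0.15 with age and 0.09 in the second comparison. No marker was at 0 in all 3 libraries of a group. Within the stromal list Ibsp stood at 12.17 to 32.75 FPKM in young controls, 3.66 to 4.56 in aged controls and 8.06 to 10.98 under the knockout label, Cxcl12 at 41.94 to 49.15, 22.8 to 32.64 and 19.67 to 22.91 FPKM, and Adipoq at 12.34 to 14.47, 5.53 to 6.72 and 3.33 to 4.55 FPKM. Limma called these 3 of the 4 stromal markers tested lower with age, where 2.8% of all genes were, and voom called 3. In the libraries labelled knockout against aged controls limma called Adipoq lower, where 2.01% of all genes were, and voom called none. Against young controls limma called Adipoq and Cxcl12 lower in the libraries labelled knockout, where 0.212% of all genes were called in either direction, and voom called 2. Lepr, the other stromal marker tested, was at 3.33 to 10.22 FPKM over the 9 libraries, while Pdgfra and Col1a1 were at 0.12 to 0.86 and 0.1 to 0.59 FPKM. Of the leukocyte markers, Cd52 stood at 0.48 to 1.2 FPKM in young controls, 2.36 to 3.79 in aged controls and 0.87 to 2.22 under the knockout label. It was the 1 of 4 tested that limma called higher with age, where 1.2% of all genes were. Coro1a was at 1.17 to 4.31, Laptm5 at 1.37 to 3.47, Cd48 at 0.15 to 2.77 and Ptprc at 0.03 to 0.13 FPKM.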

How the data were processed

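The authors deposited 1 table of FPKM values for 52183 genes and 9 libraries, rounded to 2 decimals. The submitters' processing notes name STAR, edgeR and FastQC 0.11.5 and the builds mm10 and GRCm38, without their roles. How reads were counted (strand, multi-mapping) is not given in the sources used here. Per the labels' protocols, 2 ng of total RNA was made into libraries with a SMART-Seq low-input kit.

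All 52183 identifiers matched GENCODE M21 (GRCm38), the source of coordinates and exon lengths. Depth was taken as the number of fragments that makes low values of genes of 60 to 400 bases whole multiples of 1 fragment (99.6% to 99.8% of values of up to 6 fragments, tolerance 0.1). Values were tested as log2(FPKM + 1), pseudocount 1, in R 4.3.3 with limma 3.58.1: 1 mean per group over 9 libraries, 6 residual degrees of freedom, eBayes with a trend, Benjamini-Hochberg over the 11796 genes averaging 1 FPKM or more, threshold 0.05. Of the 10 genes 7 passed this filter. Differences on that scale understate low genes. The voom fit without the FPKM filter used 24054 genes with at least 10 fragments. The fit was also run on simulated data, and no outcome of that run is reported here. Figures used matplotlib 3.10.9 in Python 3.11.15. Promoter windows came from RefSeq.

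The named genes are the 10, family genes above 1 FPKM, up to 4 called genes per list and comparison, Thbs1 and the 3 genes most like each called one. Members, lists and tests were chosen with earlier results of these data known. Protein sequences were not used here.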

Additional observations from a re-analysis of the deposited data

How the results depend on the processing

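Of the 393 refits of the 7 tested genes over the 3 comparisons, 373 kept the result as reported, 11 gained a call and 9 lost one. Nearly all of the 373 were differences not called that stayed so. The 9 losses were all of the 1 reported call, Epha2 in the libraries labelled knockout against aged controls. It was called in 10 of its 19 refits. No called value changed sign. The count of called genes among the 10 with age was 1 with a mean of at least 5 FPKM and 1 with voom, in place of 0. Of all genes 7.99% and 5.04% were called there. That higher mean left Efna5 and Epha4 untested. In the libraries labelled knockout against aged controls the count was 0 without a filter and 0 with the 2 groups alone, in place of 1. It was 2 with a mean of at least 5 FPKM, 2 with voom, and 3 with voom without the FPKM filter, added after seeing the data. The shares of all genes called in these fits were 0.403%, 1.26%, 7.19%, 5.59% and 2.27%, in that order. Leaving out 1 library gave 0 to 1 with age and 0 to 3 in the second comparison. Of all genes 0.0424% to 8.81% and 1.67% to 9.83% were called in those fits. Over all genes the counts of 471, 565 and 25 became 39, 146 and 15 without a filter (36202 genes tested). They were 716 and 149 with the 2 groups alone for the first 2 comparisons, and 12 in the third with a mean of at least 5 FPKM. Leaving out 1 library gave 5 to 1039, 197 to 1159 and 11 to 31, and without replicate 2 labelled knockout the first 2 counts were highest (1039 and 1159). The causes were not tested. With age the split of 141 higher and 330 lower became 215 and 200 after median-ratio scaling and 160 and 199 after quantile normalization. The median log2 difference of all genes moved by over 0.1 in voom without the FPKM filter, from -0.045 to -0.17 with age. With the replicate number as a block, 183 genes (1.55%) were called with age. In the libraries labelled knockout against aged controls that fit called 2 of the 10 (Epha2 and Efnb2), and 3.39% of all genes. The replicate number is known from the library titles only, and whether it marks a shared preparation cannot be told. Deviations of same-numbered libraries correlated by -0.129 to 0.124, and not every library correlated best with its own number. Groups of 3 libraries are too small for these correlations to settle it. Groups of 3 libraries and values rounded to 0.01 FPKM limit the low receptors; 0.01 FPKM of Ephb1 is 1.6 fragments.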
